A study of Saccharomyces cerevisiae with 4 samples.

Results

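The histone genes of budding yeast (Saccharomyces cerevisiae) were taken as the 10 genes HTA1, HTA2, HTB1, HTB2, HHT1, HHT2, HHF1, HHF2, HTZ1 and HHO1, out of 5583 genes named on the arrays, and were matched by gene symbol. All 10 were printed on both array platforms. Each of the 4 arrays compared RNA precipitated through zz-tagged Mex67, which escorts messenger RNA out of the nucleus through the pore, with RNA from a control precipitation of the bare zz tag, a tag derived from protein A. The labels give no strain, growth condition or treatment, and do not say whether different arrays stand for different cultures, so the spread between arrays may be technical. Replicate 1 was measured on the first platform (1 spot for each histone gene) and replicates 2, 3 and 4 on the second (2 spots for each). A value was present for 9 of the 10 genes on at least 1 array, and for 17 of 40 combinations of gene and array.

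Histones package DNA into nucleosomes, whose core is built from H2A, H2B, H3 and H4. In this yeast each core histone is encoded by 2 genes, and the 8 genes lie as 4 divergent pairs, each pair transcribed outwards from a shared promoter and switched on around S phase. The HIR complex represses all of these pairs but HTA2-HTB2. Unlike the replication-dependent histone messages of animals, which end in a stem-loop, yeast histone messages carry a poly(A) tail. 

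The 2 H3 genes encode the same protein, as do the 2 H4 genes, and the H2A and H2B copies encode nearly the same protein. Because the copies are so alike, a probe for one copy may also bind RNA of the other, and values of copies are uncertain in that sense. HTZ1 encodes the variant H2A.Z, which marks nucleosomes beside promoters, and HHO1 encodes the linker histone. On the chromosomes, HTA1 (YDR225W) and HTB1 (YDR224C) lie together on IV. HTA2 (YBL003C), HTB2 (YBL002W), HHF1 (YBR009C) and HHT1 (YBR010W) lie on II, HHT2 (YNL031C) and HHF2 (YNL030W) on XIV, HTZ1 (YOL012C) on XV and HHO1 (YPL127C) on XVI. Coordinates are left out, since no genome build is named.

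All values below are log2 ratios of the 2 channels minus the median over the genes of that array, so 0 is the array's middle gene and 1 is 2-fold above it. High values probably stand for RNA that was more abundant with zzMex67, since that precipitate comes first in the titles and is in channel 1 on replicates 1, 3 and 4. The files do not settle this, so values are called higher or lower. The channels of replicate 2 are the other way round per the labels, and its sign was turned. Whether the submitters had already turned it is not settled, so every sign on replicate 2 is uncertain, and ribosomal protein genes, whose medians are positive on the other 3 arrays, have a median of -1.04 there once turned. The arrays had values for 4409, 524, 2280 and 2421 genes (replicates 1 to 4), or 79%, 9.46%, 41.2% and 43.7% of the named genes, and for 8, 2, 6 and 1 histone genes. The number of arrays limits the precision of every comparison.

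Ratios also changed along the order of the spots, and this touches the histone genes directly. On replicate 1 the first 1600 spots had a median of -1.29, against 0.23 for all later spots, a boundary chosen after the data were seen. Of the 8 measured histone spots, 6 lay among those first 1600. The values of histone genes are therefore also given after every run of 400 consecutive spots was centred on its own median, called run-centred below. Moving windows of 200, 400 and 800 spots, added after the data were seen, are quoted where they differ from the fixed runs. On replicates 2, 3 and 4 the medians of such runs had SDs of 1.25, 0.93 and 0.59, and 0.74 on replicate 1. Whether the position of a spot or the genes placed there sets these medians was not tested.

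On replicate 1, where the most members were measured, the H3 gene HHT2 and the H2A gene HTA1 had the highest values. The 8 measured histone genes had a median of 0.35 and ranged from -1.12 to 2.39, and 5 of them lay above the array median, where 50% of all genes do. At 2-fold or more, 3 were higher (26% of all genes) and 1 was lower (21.1% of all genes). These shares are near those of all genes. Run-centred, the 7 core histone genes measured there all lay above the median, from 0.11 to 2.78, and 6 of the 7 were 2-fold or more higher, against 25.5% of all genes. With the 3 moving windows HHF1 had 0.41, 0.34 and -0.10, and the other 6 stayed above the median. HTZ1 had -0.71, where HHF1 was lower at -1.12. Run-centred, HTZ1 was the sole measured histone gene below the median, at -0.82. With windows of 200, 400 and 800 spots HTZ1 had -0.51, -0.83 and -1.10. Replicate 1 is a single array of its platform, so no replicate check of these values exists.

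On replicate 3, which had the next most members, most histone genes lay below the array median. The 6 measured genes had a median of -0.98 and ranged from -1.65 to 1.09, with 5 below the median (50% of all genes). At 2-fold or more, 3 were lower, against 21.9% of all genes, and 1 was higher, against 28.9%. Run-centred, the median was -0.28, with 4 genes below it, 1 gene 2-fold or more lower (18.6% of all genes) and 1 higher (18.8%). With these fixed runs, then, the counts on replicate 3 were close to those of all genes. With moving windows of 200, 400 and 800 spots HTA2 had -0.14, 0.13 and 0.41. The other histone genes with a value all lay below the median. HTB2, the gene 2-fold higher with fixed runs, then had -0.22, -0.16 and -0.20. HHF2 alone was 2-fold or more lower, at -1.12, -1.39 and -1.64.

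**Figure D1:**
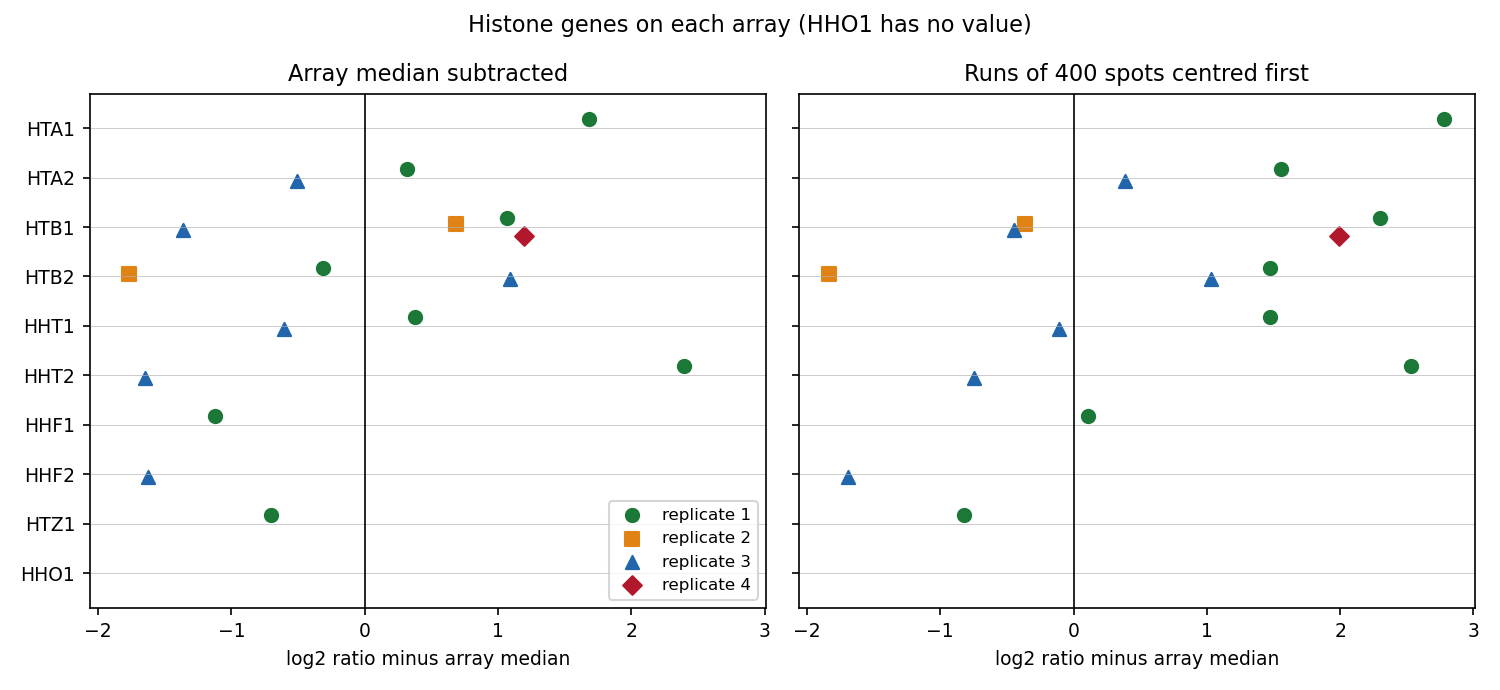
Log2 ratio minus the array median (horizontal axis) for each histone gene (vertical axis) on each array, 1 symbol per array, without (left) and with (right) prior centring of runs of 400 spots. HTB1 alone has 4 symbols, and on the right all replicate 1 symbols of core histone genes lie at or above 0.11.

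H2B was the best measured histone. HTB1 was measured on all 4 arrays, the sole member of which this is true, and had 1.06, 0.68, -1.37 and 1.20 on replicates 1 to 4, with 3 arrays above the median and replicate 3 below it. Its spots agreed closely: the deposited log10 ratios were -0.363 and -0.399 on replicate 2 and 0.954 and 0.990 on replicate 4, while on replicate 3 a single spot, at -0.660, had a value. The duplicate spots thus differ far less than the arrays do.

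Over replicates 2, 3 and 4, the arrays of one platform, the mean of HTB1 was 0.17 ± 1.36 (SD, n = 3), which limma's test over 135 genes did not call (adjusted p = 0.965). Leaving out replicate 2, 3 or 4 gave means of -0.09, 0.94 and -0.34, so the direction rests on which array is kept. With replicate 2 as deposited the mean was -0.29. Run-centred, HTB1 had 2.30, -0.37, -0.45 and 1.995 on replicates 1 to 4. With moving windows of 200, 400 and 800 spots its value was 1.55, 1.70 and 1.69 on replicate 1 and 0.77, 0.70 and 1.26 on replicate 4. On replicate 2 it was 0.65, -0.06 and -0.33. It stayed above the median on replicates 1 and 4, and its side on replicate 2 depends on the centring. On replicate 4, where HTB1 is the sole histone gene with a value, 22.5% of all genes are 2-fold or more higher as it is, or 18.7% run-centred, and HTB1 is under 2-fold with the windows of 200 and 400 spots. On replicate 3 the run of HTB1 held only 18 spots with a value, so its centring there is poorly determined.

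HTB2, the second H2B gene, had -0.31, -1.77 and 1.09 on replicates 1, 2 and 3. Its 2 spots read 0.371 and 0.345 on replicate 2 and 0.025 and 0.136 on replicate 3 (deposited log10 ratios). With the sign turned it lay 3.41-fold below the median on replicate 2, and as deposited (1.77) as far above it. On replicate 3, where HTB1 was low, it lay above the median. Genes 2-fold or more lower made up 29.2% of replicate 2, or 22.9% run-centred. Run-centred, HTB2 had 1.47, -1.83 and 1.03, but with moving windows of 200, 400 and 800 spots its value on replicate 3 was -0.22, -0.16 and -0.20. On replicate 2 it was -0.54 with the window of 400 spots, under 2-fold, and -1.50 with 800, and it had no value with 200.

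The H2A genes were measured less often. HTA1 had 1.68 on replicate 1, or 3.21-fold, above 81.9% of the genes of that array, and no value elsewhere. HTA2 had 0.32 on replicate 1 and -0.51 on replicate 3, both near the middle of their arrays, above 59% and 34.3% of genes. Run-centred, HTA1 had 2.78, and HTA2 had 1.55 and 0.39.

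Among the H3 genes, HHT2 carried both the highest and the lowest value. It had 2.39 on replicate 1, or 5.26-fold and above 87% of genes, and -1.65 on replicate 3, or 3.13-fold lower and above only 12.9% of genes. HHT1 had 0.37 and -0.60 on the same arrays. The H3 genes thus lay above the median on replicate 1 and below it on replicate 3. HHT2 is one of the 2 histone genes of replicate 1 outside the first 1600 spots, and its value there hardly moved on run-centring (2.53), while on replicate 3 it became -0.75. HHT1 became 1.47 and -0.11. On replicate 1, moving windows of 200, 400 and 800 spots gave 1.99, 2.20 and 2.18 for HHT2. HHT1 had 1.21, 1.39 and 1.52 there. On replicate 3 the same windows gave -0.42, -0.74 and -0.92 for HHT2, and -0.73, -0.40 and -0.20 for HHT1.

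Both H4 values were low, each from a different gene and array. HHF1 had -1.12 on replicate 1, or 2.18-fold lower, and HHF2 had -1.63 on replicate 3, or 3.09-fold lower. HHF1 sat in a run of low spots and had 0.11 after run-centring, above 53.1% of the spots of its run. HHF2 kept its low value, at -1.69.

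The variant and linker genes were hardly measured. HTZ1 had -0.71 on replicate 1, above 28.3% of genes, and no value on the second platform. HHO1 had no value on any array. CSE4 (YKL049C), the gene of the centromeric H3 variant, which is not among the 10, had 0.06 on replicate 1 alone, and 0.07 run-centred.

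**Figure D2:**
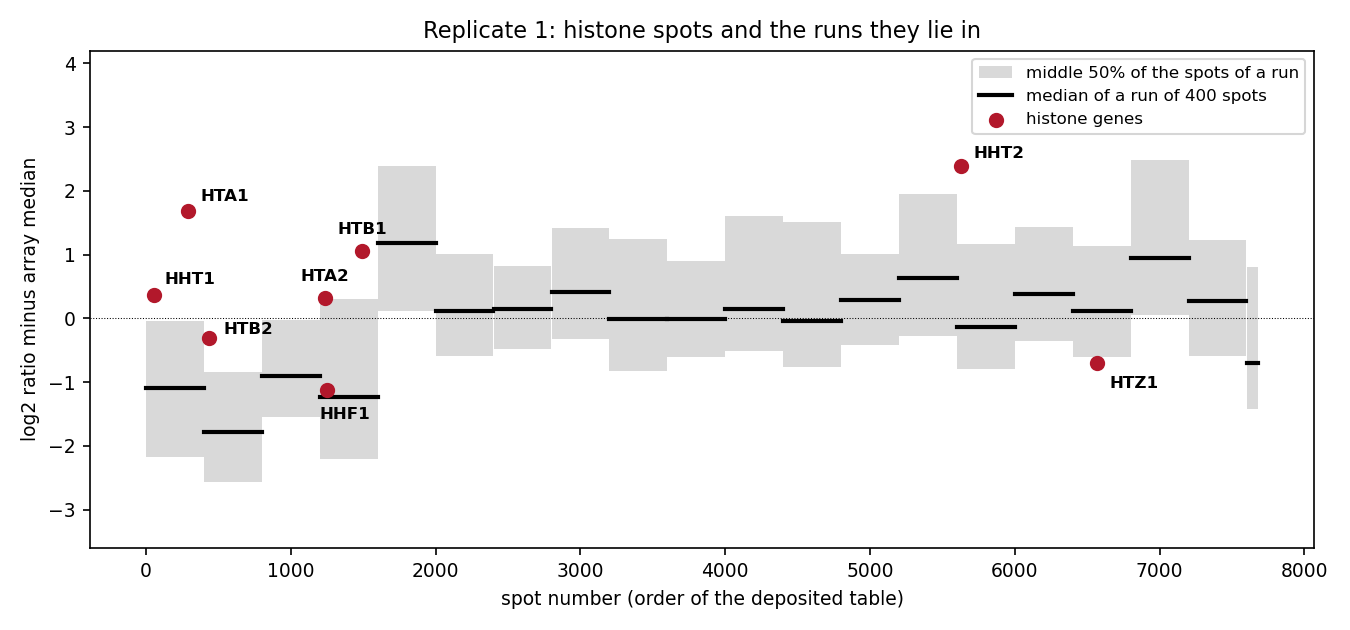
Replicate 1: log2 ratio minus the array median (vertical axis) against spot number in the deposited table (horizontal axis). Black lines are medians of runs of 400 spots (the last run is shorter), grey bands the middle 50% of their spots, and red points the 8 measured histone genes, 6 of which lie among the first 1600 spots, where run medians are lowest.

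The 5 histone genes measured on both replicates 1 and 3 had opposite signs on these arrays in 5 of 5 cases, against 48.4% of all 1777 genes with both values. HTB2 was below the median on replicate 1 and above it on replicate 3, and HTA2, HHT1, HTB1 and HHT2 went the other way. Their order was also turned: from low to high it ran HTB2, HTA2, HHT1, HTB1, HHT2 on replicate 1 and the exact reverse on replicate 3. HHT2 had the widest gap, 4.04 between the 2 arrays, and HTA2 the narrowest, 0.83. The exact reversal was lost on run-centring, where HHT1 (1.470) lay below HTB2 (1.473) and HTA2 (1.553) on replicate 1. On replicate 3 HHT1 (-0.11) also lay below both, HTA2 at 0.39 and HTB2 at 1.03. The exact reversal was also absent with each moving window, among the genes that kept values on both arrays.

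Both arrays carry the zzMex67 precipitate in channel 1 per the labels, and over all 1777 genes their correlation was 0.060 (Spearman's rho 0.061, across genes, which share the array and are not independent). Of the 1777 genes, 106 (5.97%) were 2-fold or more higher on replicate 1 and 2-fold or more lower on replicate 3, and HTB1 and HHT2 were among them. Run-centred, 3 of the 5 histone genes had opposite signs (46.5% of all genes), because HTB2 and HTA2 then lay above the median on both arrays. With moving windows HTB2 lay below it on replicate 3 in each case, and HTA2 had -0.14, 0.13 and 0.41 there. With 200, 400 and 800 spots, 4 of 4, 3 of 4 and 4 of 5 histone genes thus had opposite signs. The shares of all genes with opposite signs were 47.7%, 46.3% and 45.8%. On replicate 2, with the sign turned, HTB1 lay above HTB2, as on replicate 1. As deposited, HTB2 (1.77) lay above HTB1 (-0.68), as on replicate 3.

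**Figure D3:**
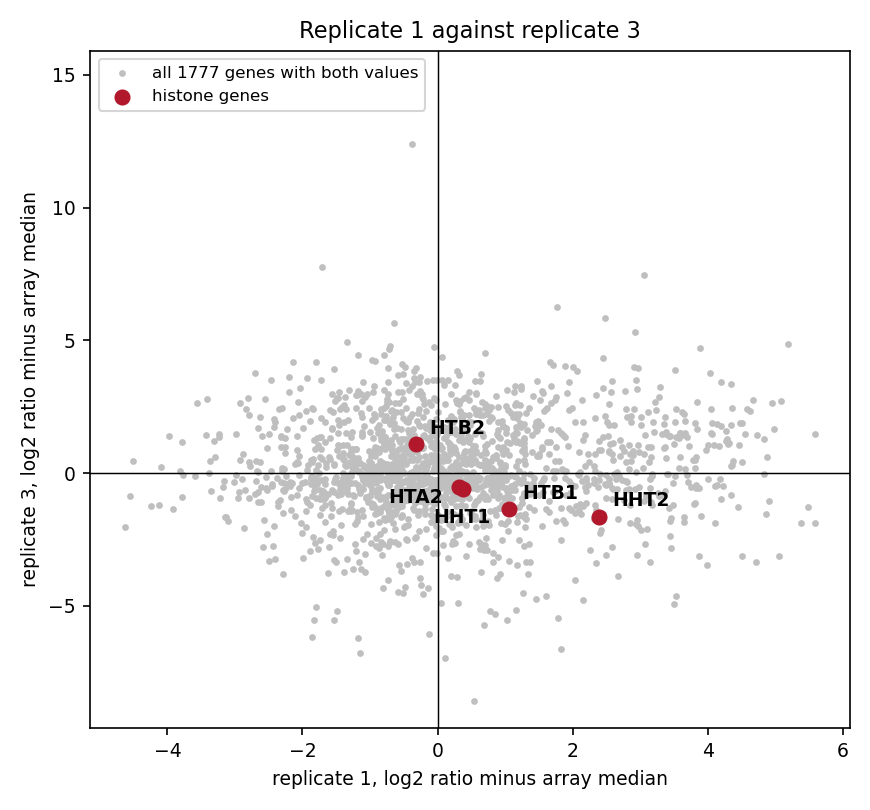
Log2 ratio minus the array median on replicate 1 (horizontal axis) and replicate 3 (vertical axis) for the 1777 genes with both values (grey) and the 5 histone genes among them (red). The histone points descend from HTB2 at upper left to HHT2 at lower right.

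No histone gene passed a test across arrays. Where genes with a value on at least 2 of the 4 arrays were fitted, with missing arrays dropped gene by gene, 5 histone genes entered. Their means were -0.10 for HTA2 (n = 2), 0.39 for HTB1 (n = 4), -0.33 for HTB2 (n = 3), -0.12 for HHT1 (n = 2) and 0.37 for HHT2 (n = 2), with adjusted p from limma between 0.966 and 0.993. The standard errors, from 0.71 for HTB1 to 1.14 for HHT2, exceeded each mean. Limma called 0 of the 3288 genes in that fit (0%), with 221 at an unadjusted p under 0.05, and 0 of 135 in the fit on the second platform (0%), with 6 at an unadjusted p under 0.05.

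The divergent pairs were compared within arrays, where 5 of the 16 combinations of pair and array had both partners. HTA1 and HTB1 had 1.68 and 1.06 on replicate 1, a difference of 0.62. HTA2 and HTB2 had 0.32 and -0.31 on the same array, a difference of 0.63, and -0.51 and 1.09 on replicate 3, a difference of 1.60. Before run-centring, HTA1 and HTB1 were thus both high on replicate 1, and HTA2 and HTB2 both near the middle. Run-centred, HTA2 and HTB2 were also high there, at 1.55 and 1.47, below HTA1 and HTB1 at 2.78 and 2.30.

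HHT1 and HHF1 had 0.37 and -1.12 on replicate 1, a difference of 1.497. HHT2 and HHF2 had -1.65 and -1.63 on replicate 3, a difference of 0.02 and the closest of the 5. In all, 2 of the 5 had both partners on one side of the median before run-centring, and 5 of 5 after it. With moving windows HHT1-HHF1 (800 spots) and HTA2-HTB2 on replicate 3 (400 and 800 spots) had partners on opposite sides. The matching share of other pairs was not computed run-centred.

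Other neighbouring divergent gene pairs gave median differences of 1.23 on replicate 1 (831 pairs) and 1.46 on replicate 3 (196 pairs), and 55.8% and 56.6% of them had partners of one sign. The differences of HTA1-HTB1 and HTA2-HTB2 on replicate 1 exceeded 25.4% and 25.8% of those pairs, and that of HHT1-HHF1 58%. On replicate 3 HTA2-HTB2 exceeded 52.6% and HHT2-HHF2 0%.

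Run-centring moved the closest pair apart and others together. HHT2-HHF2 then differed by 0.95 (more than 38.3% of pairs), with HHT2 the higher, where it was the lower by 0.02 before. HTA2-HTB2 differed by 0.08 on replicate 1 (more than 3.97% of pairs) and by 0.64 on replicate 3. HTA1-HTB1 differed by 0.48 and HHT1-HHF1 by 1.36. With moving windows HTA1-HTB1 differed by 1.32 to 1.33, and HTA2 lay above HTB2 on replicate 3, by 0.0762 to 0.61, where it lay below before. The small differences are therefore not stable to how position is handled. The pairs were not neighbours on the arrays: partners were printed 800 or 1200 spots apart on the first platform and 3200 on the second.

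Copies of one histone often differed by more than 2-fold within an array. HTA1 exceeded HTA2 by 1.37 and HTB1 exceeded HTB2 by 1.38 on replicate 1, so both genes of the HTA1-HTB1 locus lay above their copies at the HTA2-HTB2 locus. Run-centred the differences were 1.23 and 0.83, and with moving windows 1.04 to 1.66 and 0.47 to 0.67, in the same direction. HHT2 exceeded HHT1 by 2.02, or 4.06-fold, on replicate 1, and HHT1 exceeded HHT2 by 1.04 on replicate 3. HTB1 exceeded HTB2 by 2.46 on replicate 2 (sign turned), and HTB2 exceeded HTB1 by 2.46 on replicate 3. With and without run-centring, no copy pair with values on more than 1 array kept one order over all of them. With the window of 200 spots HHT2 exceeded HHT1 on both arrays, by 0.78 and 0.31.

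The median over the 6 copy differences was 1.70, against 0.63 over the 5 divergent differences, or 1.14 against 0.64 when run-centred. With moving windows the copy median was not the larger, at 0.63 against 0.76 (200 spots, 4 and 5 differences), 0.67 against 0.74 (400 spots) and 0.70 against 0.72 (800 spots). The values share genes and arrays, so no test was made. Ribosomal protein A/B gene pairs, also near-identical copies, had median differences of 0.97 on replicate 1 (55 pairs), 1.03 on replicate 2 (13 pairs) and 0.91 on replicate 3 (20 pairs). HTB1-HTB2 exceeded 92.3% of these on replicate 2 and 90% on replicate 3, and HHT1-HHT2 exceeded 78.2% on replicate 1 and 50% on replicate 3. Run-centred, HTB1-HTB2 differed by 1.47 and 1.48 on replicates 2 and 3, more than 69.2% and 65% of those pairs, and HHT1-HHT2 by 1.06 on replicate 1 and 0.64 on replicate 3. With windows, HHT1-HHT2 on replicate 1 differed by 0.66 to 0.81.

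Duplicate spots give the spread between spots printed side by side, which need not be the whole error within an array. The 8 histone values that rest on 2 spots had spot differences from 0.08 to 0.78 on the log2 scale, with a median of 0.25. The differences between H2B copies on replicates 2 and 3 exceeded all of these, uncentred and run-centred, but not with moving windows of 400 spots on replicate 2 (0.49) or 800 spots on replicate 3 (0.27). Over all genes of replicates 2, 3 and 4 with several spots, the SD between the spots of a gene was 0.82, 0.84 and 0.55. Duplicates lie side by side, so they share any effect of position.

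**Figure D4:**
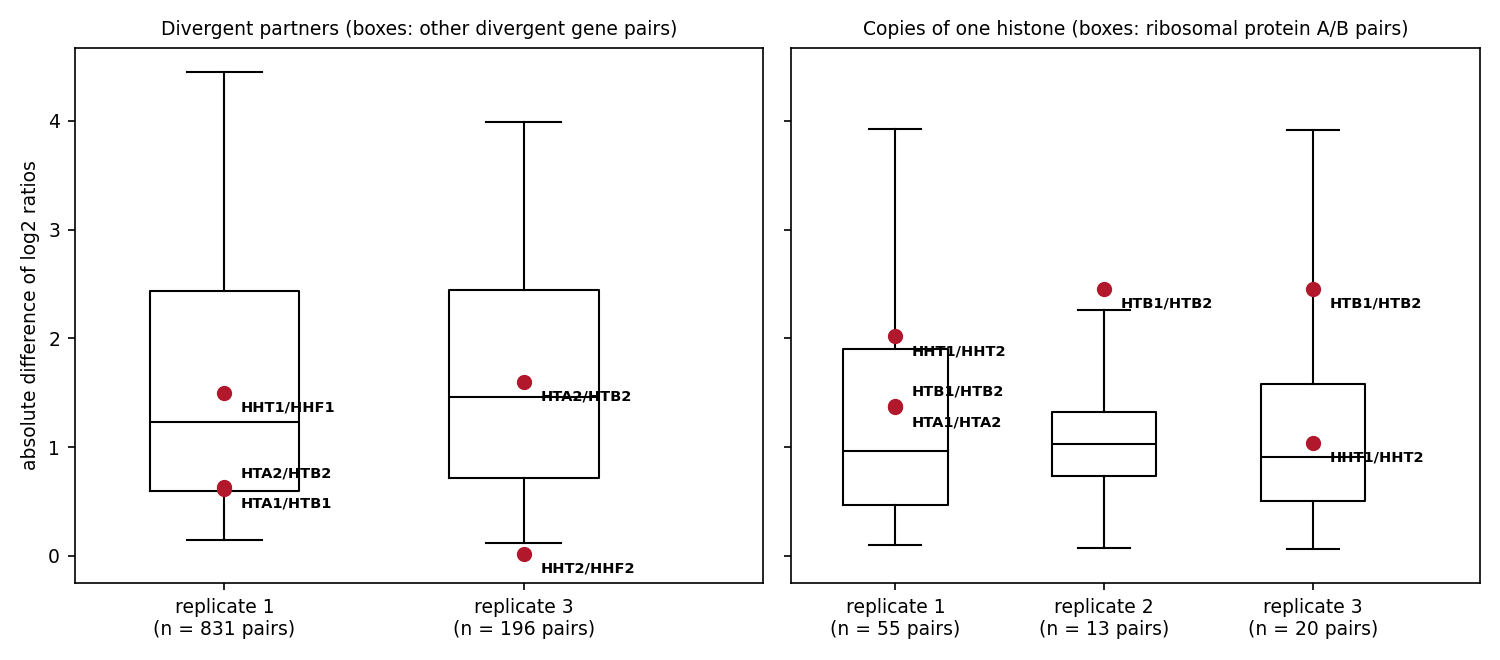
Absolute difference of log2 ratios (vertical axis) within an array, for divergent histone partners (left) and histone copies (right), as red points by array. Boxes show the quartiles of the comparison pairs and whiskers their 5th and 95th percentiles. HHT2/HHF2 lies near 0, and HTB1/HTB2 lies above its box on replicates 2 and 3.

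Ribosomal protein genes, like histone genes a family with many near-identical copies, had a median of 3.38 on replicate 1 (135 genes) and 0.59 on replicate 3 (84 genes), against 0.35 and -0.98 for the histone genes. On replicates 2 (sign turned) and 4 they had -1.04 (48 genes) and 0.85 (77 genes), below the -0.54 of 2 histone genes and the 1.20 of HTB1. Among the first 1600 spots of replicate 1, where most histone spots lie, 31 ribosomal protein genes had a median of 2.39, against 3.62 for the 104 elsewhere. Run-centred, the medians on replicate 1 were 3.25 for ribosomal protein genes and 1.51 for histone genes. On replicate 2 (sign turned) the order changed on run-centring, with -0.29 for ribosomal protein genes and -1.10 for the 2 histone genes. Replicates 3 and 4 gave 0.60 and 0.58 for ribosomal protein genes, against -0.28 for histone genes and 1.995 for HTB1 alone.

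Genes that act on histones or with them were described from 7 lists. Of the regulators of histone gene transcription, such as the HIR subunits and the SBF and MBF factors, 4 of 11 lay above the median on replicate 1, 1 of 7 on replicate 3 and 1 of 3 on replicate 4 (50% of all genes on each array). Of the genes for histone chaperones, which hand histones to DNA, these were 5 of 10, 3 of 8 and 1 of 2, or 3 of 10, 3 of 8 and 2 of 2 run-centred. Of the genes for histone-modifying enzymes they were 7 of 18, 7 of 8 and 2 of 12, or 7 of 18, 6 of 8 and 3 of 12 run-centred. On replicate 3, 5 of these 8 were 2-fold or more higher (28.9% of all genes), or 3 of 8 run-centred (18.8%). Medians of the regulators were -0.41, -0.84 and -0.06, and run-centred 4 of 11, 2 of 7 and 1 of 3 lay above the median.

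Genes that are switched on at S phase, as histone genes are, had 9 of 11 above the median on replicate 1 (median 0.53), 1 of 5 on replicate 3 (median -0.95) and 4 of 9 on replicate 4 (median -0.41). Run-centred, these were 7 of 11, 0 of 5 and 4 of 9. Genes for H2A.Z exchange had 4 of 11, 0 of 2 and 4 of 6 above the median on replicates 1, 3 and 4, HMG protein genes 2 of 3, 1 of 2 and 1 of 2, and RNA decay genes 2 of 8, 1 of 7 and 3 of 3. Run-centred these were 6 of 11, 0 of 2 and 3 of 6 for H2A.Z exchange, 3 of 3, 1 of 2 and 1 of 2 for HMG proteins, and 3 of 8, 1 of 7 and 3 of 3 for RNA decay.

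Of the 9 genes of the 7 lists with values on replicates 1, 3 and 4, 1 had the same sign on all 3 arrays and so was named, against 28.4% of the 725 genes measured on them. YTA7 (YGR270W), a bromodomain ATPase that acts at histone genes, had -1.82, -2.63 and -0.48 on these arrays, a mean of -1.64 ± 1.09 (SD, n = 3), and -3.00, -2.72 and -0.41 run-centred.

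Among 725 genes measured on replicates 1, 3 and 4, the pattern nearest to the histone medians (0.35, -0.98 and 1.20, the last from HTB1 alone) was that of ALP1 (YNL270C), an amino acid permease gene, at 0.20, -1.10 and 1.22, a Euclidean distance of 0.18. URA4 (YLR420W), of pyrimidine synthesis, followed at 0.51 and ZNF1 (YFL052W), which encodes a zinc finger factor, at 0.61. Each distance rests on 3 arrays and on values that were not run-centred. Run-centred, the histone medians were 1.51, -0.28 and 1.995, and ALP1 had -0.07, -0.93 and 1.41. URA4 then had 0.56, -1.29 and 0.84, and ZNF1 0.74, -0.60 and 1.44. The closeness of ALP1 was thus lost on run-centring, and distances were not ranked again.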

How the data were processed

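The authors deposited log10 ratios between the 2 channels, in a table of 7680 spots (replicate 1) and one of 12800 spots (replicates 2, 3 and 4). The base was read from the values: on the second table, raising 10 to a value gave a simple fraction (denominator up to 50, tolerance 2e-08) for 4.68% to 15.5% of spots, against 0% to 0.152% with base 2. The sources used here do not give scanner settings, background correction or normalization. Over spots, the deposited medians (log10) were 0.386, -0.163, -0.251 and 0.643, so arrays had not been centred alike.

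Values were converted to log2, the spots of a gene averaged and each array centred on its gene median. Replicates were numbered in accession order. Symbols came from the platform annotation, checked by gene identifier against a RefSeq table (assembly R64), which also gave neighbouring genes, with 0 updates. Spots without a gene name (985 and 1662) were left out. The test was limma 3.58.1 (R 4.3.3; lmFit, eBayes, Benjamini-Hochberg, threshold 0.05) on genes measured on replicates 2, 3 and 4, tested on simulated data. The files give no intensities, so dim spots were not filtered.

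The members and lists were chosen with earlier results of these data known. Named genes were the members, CSE4 and, from each list, up to 2 genes of one sign on replicates 1, 3 and 4 with the largest mean. Also named were the 3 genes nearest in pattern. No sequences are printed.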

Additional observations from a re-analysis of the deposited data

How the results depend on the processing

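Limma's test called 0 genes in the main fit and under all 14 alternatives, the fits without 1 array included, with the smallest adjusted p between 0.214 and 0.955 over those alternatives. HTB1's mean of 0.17 had the same sign in 10 alternatives and turned in 3. It was -0.29 with replicate 2 as deposited, and ranged from -0.34 to 0.94 over the fits without 1 array (-0.09 without replicate 2 and -0.34 without replicate 4). It had no value where genes needed 2 or more spots on each array. The histone median of replicate 1 moved from 0.35 to 1.51 with runs of 400 spots centred. It was 1.38, 1.54 and 1.43 with moving windows of 200, 400 and 800 spots, which were added after the data were seen, and 1.62 with no centring. Without centring that of replicate 4 was 3.23, and that of replicate 2 was 0.54 as deposited and 0.65 with the window of 200 spots, where HTB1 alone was left. The count of genes of opposite sign on replicates 1 and 3, 5 of 5, was 3 with runs or the window of 400 spots centred (of 5 and of 4 genes). The shares of all genes were then 46.5% and 46.3%. Centring runs also moved the differences HHT1-HHT2 on replicate 1 (1.06), HTB1-HTB2 on replicates 2 and 3 (1.47 and 1.48) and HTA2-HTB2 on replicate 3 (0.64), and turned HHT2-HHF2 (0.95). With moving windows of 200, 400 and 800 spots, replicate 1 gave 1.33, 1.32 and 1.32 for HTA1-HTB1, 0.47, 0.67 and 0.48 for HTB1-HTB2, 0.78, 0.81 and 0.66 for HHT1-HHT2, and 0.80 (200 spots) for HHT1-HHF1. On replicate 2 HTB1-HTB2 was 0.49 (400) and 1.17 (800). On replicate 3 HTA2-HTB2 turned (0.0762, 0.29 and 0.61), as did HHT2-HHF2 (0.70, 0.65 and 0.72). HHT1-HHT2 there was 0.31 (200, turned) and 0.35 (400), and HTB1-HTB2 0.27 (800). Counting the 0.65 of HHT2-HHF2 among them, the remaining 53 pair values moved by less than the others above. They include HTA2-HTB2 on replicate 1, which went from 0.63 to 0.08 with runs centred. Each is 1 difference on 1 array, with no SD of its own. The cause of these changes was not tested. No paired analysis was possible because all 4 arrays form 1 group. Few spots per run on replicate 2 (31.4 with a value on average) limit centring there.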
